A study of Rattus norvegicus with 20 samples.

Results

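The complement genes described here are 9 of the 32402 genes in the tables: the 3 C1q chains C1qa, C1qb and C1qc, the protease C1s, the components C2 and C3, the receptors C3ar1 and C5ar1, and the inhibitor Serping1. They were chosen by gene symbol, and each symbol stands for a single Ensembl gene. The study sequenced poly(A) RNA from bilateral punches of the supraoptic nucleus (SON), the hypothalamic nucleus whose magnocellular neurones make vasopressin and oxytocin. There were 20 male Wistar Han rats in 4 groups of 5: adult euhydrated (EH), adult dehydrated (DH), aged EH and aged DH. Adult rats were 3 months old and aged rats 18 months old. EH rats drank freely, and DH rats had no water, for 72 h by the study's methods. The treatment text of the sample labels gives 2 days, but it gives this for EH rats as well. The methods state that adult and aged rats were sampled, punched, extracted and sequenced in parallel. No transgene or other genetic change was involved, each library came from 1 rat, and a punch of this kind holds glia, vessels and any adjoining meninges as well as neurones.

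Complement is a cascade of blood and tissue proteins that tags cells, debris and synapses for removal. C1q, built from the A, B and C chains, binds a target, its partner proteases C1r and C1s then cleave C4 and C2, and the resulting enzyme cleaves C3. Fragments of C3 stay on the target and are read by receptors on phagocytes, whereas the small fragments C3a and C5a signal through C3ar1 and C5ar1. C1 inhibitor, encoded by Serping1, stops C1r and C1s. In brain, C1q is made mostly by microglia, C3 can be made by glia and by cells of the choroid plexus and vessels, and complement is known for its part in the removal of synapses during development and ageing.

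Values are normalised read counts, that is, reads per gene divided by a size factor for each library. Reads on genes ran from 24268398 to 30348118 per library, and all 9 genes had reads in every library, from 28 reads (C5ar1 in an aged EH rat) to 2288 reads (Serping1 in an adult EH rat). These counts carry no transcript length, so levels were compared between rats and not between genes. Avp, the vasopressin gene, averaged 163773 ± 32462 normalised counts in adult EH rats and 225427 ± 24562 in adult DH rats (SD, n = 5), a rise by limma (Benjamini-Hochberg adjusted p = 0.0221). In aged rats it averaged 207734 ± 50326 in EH and 238932 ± 52189 in DH (SD, n = 5), which did not pass (limma adjusted p = 0.502). The difference between the ages in this response did not pass either (limma adjusted p = 0.754). Fold changes are on the scale of log2(normalised count + 1), abbreviated LFC, each with its standard error (SE) from limma.

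The first comparison asked what differed with age in rats that drank freely. C3 was 2.48-fold higher in aged EH than in adult EH rats, and C5ar1 was lower, at 0.594 of the adult level. The other 7 genes did not pass the test. Of the 9 genes, 1 rose and 1 fell by limma at an adjusted p under 0.05, where 5.99% of all 15369 genes tested were called, 2.69% higher and 3.30% lower. For 2 of the 9, C3 and C1qa, every aged EH rat exceeded every adult EH rat, where 6.38% of all genes tested had no overlap. At an unadjusted p under 0.05 there were 3 of the 9, against 20.3% of all genes tested. The median LFC over the 9 genes was 0.11 and over all genes tested 0.00033, and the median absolute LFC was 0.14 against 0.077.

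**Figure D1:**
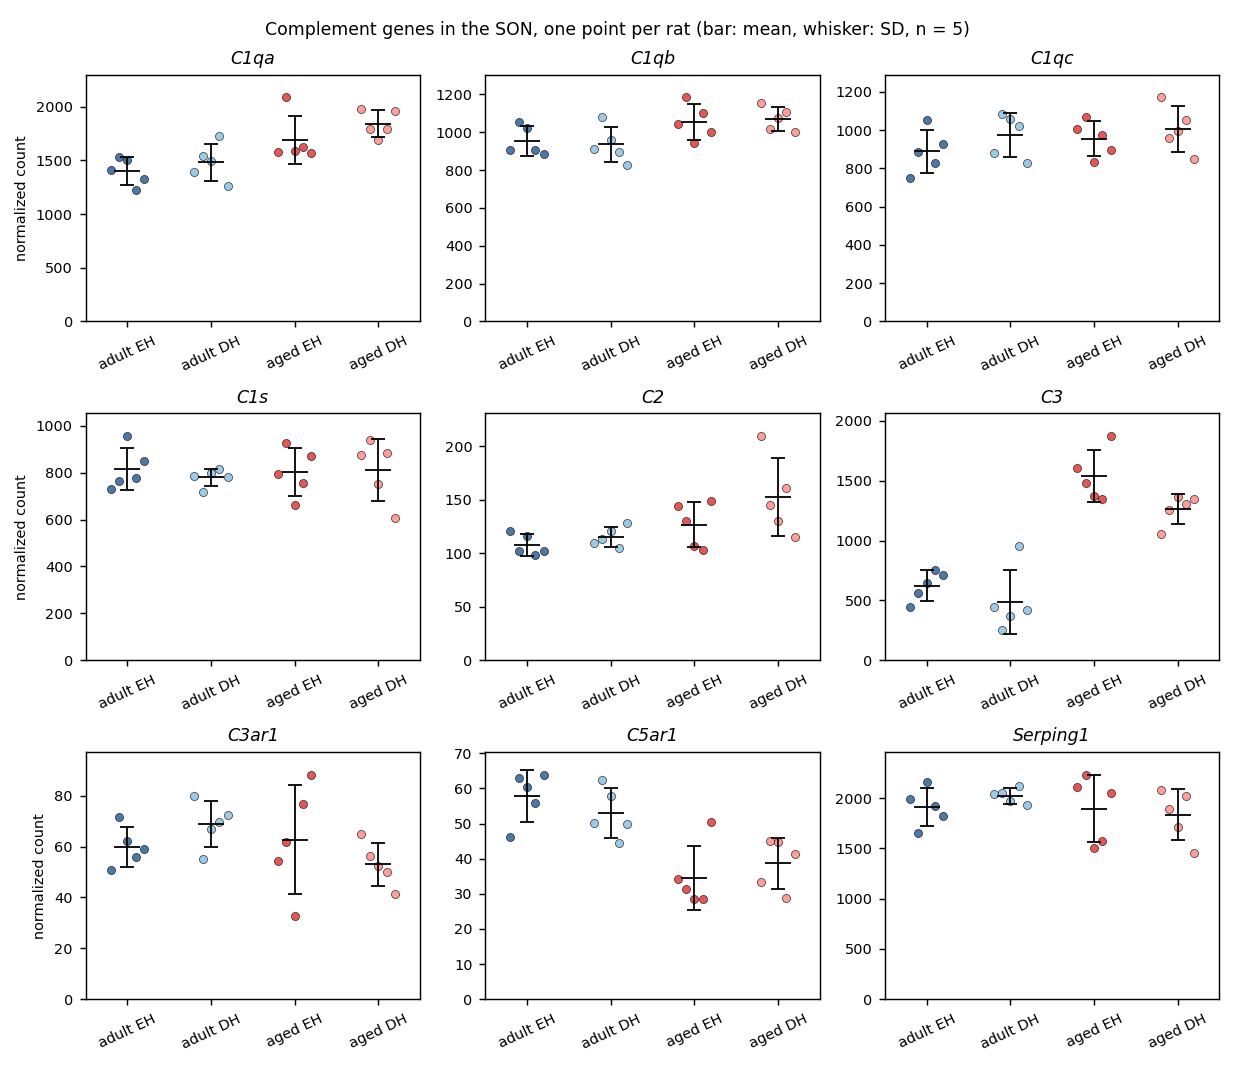
Normalised counts of the 9 complement genes (vertical axes, from 0) in adult EH, adult DH, aged EH and aged DH rats, with all 20 libraries scaled together. Each point is a rat, the bar the mean and the whisker the SD (n = 5). The C3 points of both aged groups, from 1057 to 1874, lie above every adult rat, the highest of which is the adult DH rat at 951.

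C3, the component on which all routes of complement activation meet, carried the clearest difference. In the table of EH rats its normalised counts were 1641, 1514, 1406, 1377 and 1919 in the aged rats and 452, 573, 665, 773 and 731 in the adult rats. The lowest aged rat stood well above the highest adult rat. The means were 1571 ± 220 and 639 ± 129 (SD, n = 5), an LFC of 1.31 (SE 0.13, 95% interval 1.03 to 1.59; limma adjusted p = 1.05e-04). C3 had the 25th highest LFC of the 414 genes called higher in aged EH rats, and the 12th lowest p of all genes tested. With each of the 10 rats left out in turn the LFC stayed between 1.19 and 1.39, and C3 was called every time.

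The RefSeq promoter of C3, shown because C3 is the gene that differed most with age, spans chr9:2201290-2201589 on the minus strand of assembly GRCr8, from 250 bases before to 50 bases after the annotated start. The promoters of C1qa (chr5:154419884-154420183, minus strand) and C1qb (chr5:154407778-154408077, minus strand) are shown for comparison, since these neighbouring genes encode chains of 1 protein. The counts themselves were made on another assembly, Rn6. Capitals mark a gamma-activated site (TTCNNNGAA), the binding motif of STAT factors.
C3: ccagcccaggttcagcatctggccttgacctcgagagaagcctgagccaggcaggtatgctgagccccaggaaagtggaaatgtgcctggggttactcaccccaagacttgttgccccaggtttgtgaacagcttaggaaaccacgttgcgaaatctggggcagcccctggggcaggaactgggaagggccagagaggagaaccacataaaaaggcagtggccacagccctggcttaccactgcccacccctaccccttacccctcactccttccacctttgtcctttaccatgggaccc
C1qa: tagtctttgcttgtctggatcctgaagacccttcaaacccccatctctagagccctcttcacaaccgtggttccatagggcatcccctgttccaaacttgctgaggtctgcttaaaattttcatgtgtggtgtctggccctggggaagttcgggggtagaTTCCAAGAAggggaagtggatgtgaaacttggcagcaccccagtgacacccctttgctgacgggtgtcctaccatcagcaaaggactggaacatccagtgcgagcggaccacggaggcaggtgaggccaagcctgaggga
C1qb: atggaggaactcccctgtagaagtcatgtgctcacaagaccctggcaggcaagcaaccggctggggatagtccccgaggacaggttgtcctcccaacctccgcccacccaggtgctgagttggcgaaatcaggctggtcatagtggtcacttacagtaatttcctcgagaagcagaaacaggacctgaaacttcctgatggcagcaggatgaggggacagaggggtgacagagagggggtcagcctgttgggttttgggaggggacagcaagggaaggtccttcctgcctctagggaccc

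Promoters were at hand for 4 of the 9 genes (C1qa, C1qb, C3 and C3ar1). Each was searched on both strands for a PU.1 motif (GAGGAAGT), the interferon-stimulated response element, the gamma-activated site, an AP-1 motif (TGANTCA) and the NF-kB consensus. The gamma-activated site occurred only in that of C1qa, starting 90 bases before the start, and in 8.87% of 33469 promoters of the same length. The AP-1 motif occurred only in that of C3ar1, starting 72 bases before the start, and in 7.33% of all promoters. Neither overlapped another motif. PU.1 (2.42% of all promoters), the interferon-stimulated element (3.92%) and NF-kB (4.18%) letters were in none of the 4 windows. These matches describe the letters only.

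**Figure D2:**
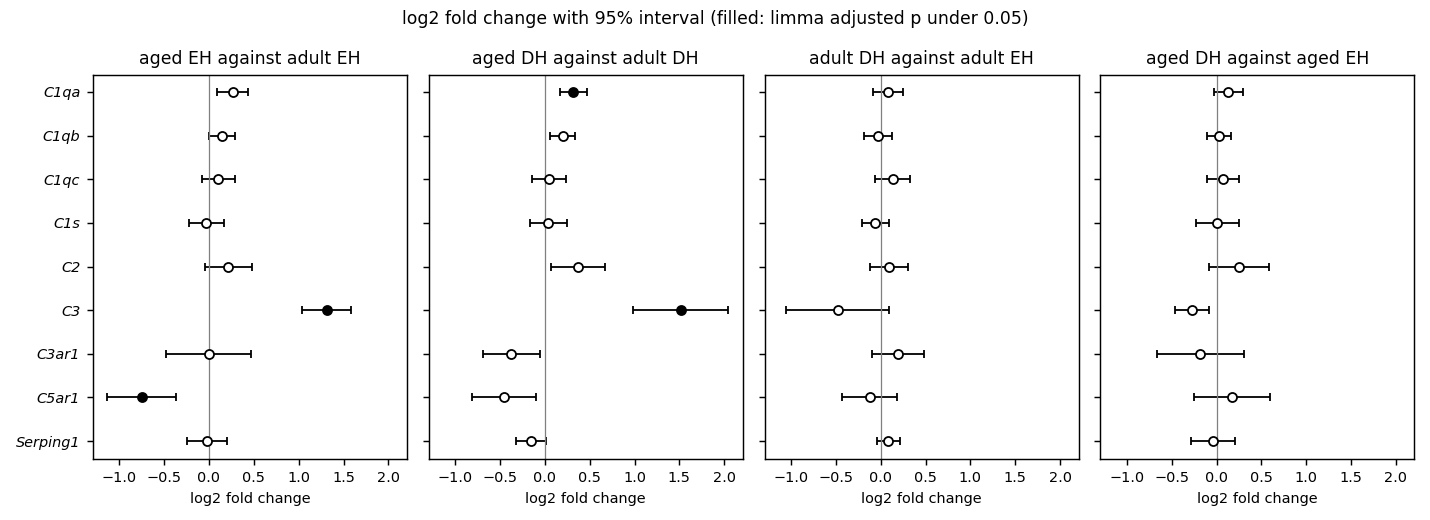
LFC (horizontal axes) of the 9 complement genes in 4 comparisons, as points with 95% intervals from limma. Filled points passed an adjusted p under 0.05. Both panels that compare ages have C3 far to the right, at 1.31 and 1.52, and no filled point appears in either panel of DH against EH.

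None of the C1q chains, the recognition part of the classical pathway, passed the test between EH rats by limma. C1qa read 1611, 2134, 1627, 1657 and 1604 normalised counts in aged EH rats and 1441, 1573, 1543, 1253 and 1356 in adult EH rats. Each aged rat exceeded each adult rat, but the gap between the groups was narrow, and replicate 2 stood apart at 2134. The LFC was 0.26 (SE 0.08, 95% interval 0.09 to 0.44) and missed the threshold (limma adjusted p = 0.0744). DESeq2 on the whole reads recovered from the tables called it (adjusted p = 0.0251), whereas edgeR did not. C1qb, at 1077 ± 94.8 against 977 ± 80.2 (SD, n = 5; LFC 0.14, limma adjusted p = 0.263), and C1qc, at 976 ± 91.4 against 910 ± 116 (SD, n = 5; LFC 0.11, limma adjusted p = 0.550), overlapped between the ages.

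The ratio between chains was also compared, since the protein needs all of them. C1qa relative to C1qb had a geometric mean of 1.60 in aged EH and 1.47 in adult EH rats (two-sided exact permutation p = 0.0635, n = 5 and 5). This was the lowest p of 9 such ratios over 3 comparisons, and none passed after adjustment (lowest adjusted p = 0.393). The smallest p that 5 against 5 rats allow is 0.00794, so a single ratio among 9 could not have passed the adjustment.

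The proteolytic components downstream of C1q did not pass the test. C1s, the protease that cleaves C4 and C2, averaged 820 ± 104 normalised counts at 18 months and 835 ± 93.5 at 3 months (SD, n = 5), an LFC of -0.03 with a 95% interval from -0.22 to 0.17. C2, which supplies the catalytic part of the C3 convertase, measured 129 ± 21.2 and 110 ± 10.2 (SD, n = 5), an LFC of 0.22 with an interval from -0.05 to 0.48 (limma adjusted p = 0.357). For Serping1, the inhibitor of C1r and C1s, the values were 1937 ± 336 and 1954 ± 196 (SD, n = 5), an LFC of -0.03 with an interval from -0.25 to 0.20. The aged EH rats were more scattered for Serping1, with 1543 and 1610 in replicates 4 and 5 and 2096 to 2277 in the other 3.

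The receptors for the small fragments were read at low counts. C5ar1, the C5a receptor of myeloid cells, measured 34.9, 32.0, 29.2, 29.0 and 51.6 normalised counts in aged EH rats and 47.1, 64.4, 61.98, 57.01 and 65.4 in adult EH rats. Of the aged rats, 4 lay below every adult rat, while replicate 6 lay above the lowest adult rat. The means were 35.4 ± 9.40 and 59.2 ± 7.48 (SD, n = 5), an LFC of -0.75 (SE 0.18, 95% interval -1.13 to -0.37; limma adjusted p = 0.0257). This call held in 3 of the 10 fits with 1 rat left out. It was lost on leaving out replicate 2, 4 or 5 of the aged rats or replicate 2, 4, 5 or 6 of the adults, with adjusted p up to 0.0622 (the last of these). C3ar1, the C3a receptor, measured 64.1 ± 21.9 and 61.4 ± 7.98 (SD, n = 5; limma adjusted p = 0.996), with aged EH rats from 33.4 to 90.3, so that its interval of -0.48 to 0.47 leaves changes of either sign.

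The comparison of adult DH with adult EH rats asked what water deprivation did at 3 months. Of the 9 genes, 0 were called by limma, by edgeR or by DESeq2, and 0 had an unadjusted p under 0.05, where limma called 12.7% of the 15280 genes tested and 26.9% had an unadjusted p under 0.05. Adult DH and adult EH rats overlapped for all 9, where 10.9% of all genes tested had no overlap. C3 measured 435, 245, 364, 934 and 417 normalised counts in adult DH rats and 434, 550, 637, 741 and 702 in adult EH rats. Replicate 4 of adult DH held more C3 than any adult EH rat, while the other 4 lay between 245 and 435, near or below the lowest EH rat. The means were 479 ± 265 and 613 ± 123 (SD, n = 5), an LFC of -0.48 (SE 0.27, 95% interval -1.05 to 0.10; limma adjusted p = 0.275). Without that rat the LFC was -0.75 and C3 was called (limma adjusted p = 0.0159). The same rat had the highest summed level of 6 choroid plexus markers in its group, 953 against 515 to 738 in the others on the scale of all 20 libraries. It was also highest in its group for the lists of astrocytes (219152 against 184696 to 197017), microglia, endothelial cells and oligodendrocytes, thus for 5 of 10 cell type lists. The part of these cells in its C3 value was not tested.

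**Figure D3:**
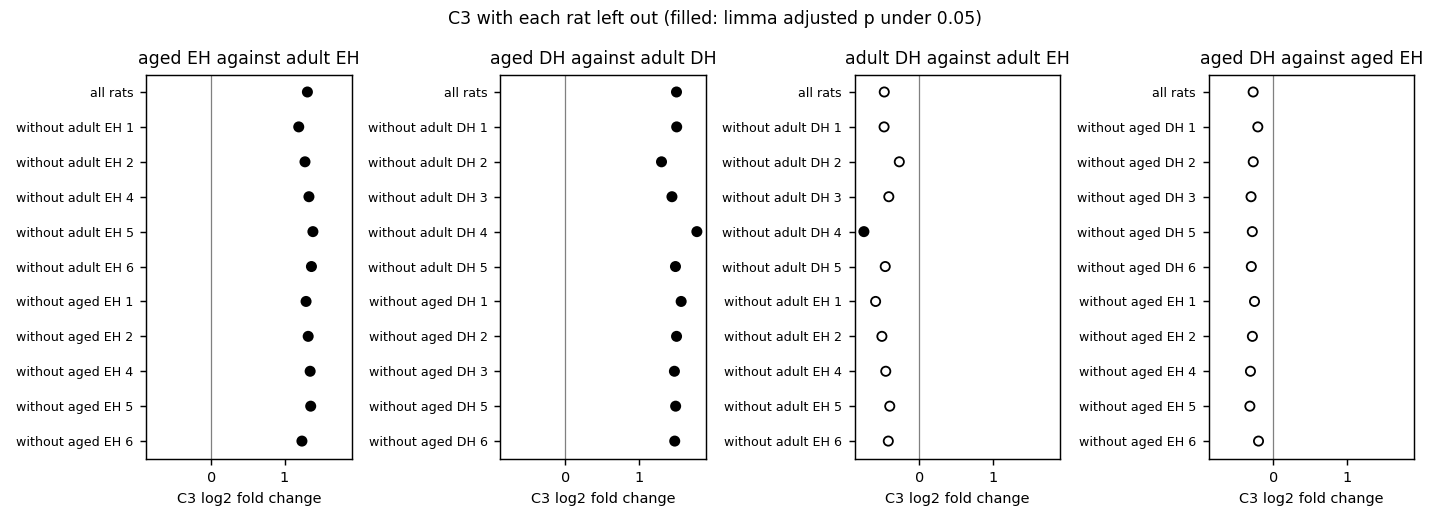
LFC of C3 (horizontal axes) with all rats and with each rat left out in turn (rows, by group and replicate number), in 4 comparisons. Filled points passed an adjusted p under 0.05 by limma. All points of both age comparisons are filled, and among DH against EH only the fit without adult DH replicate 4 is, at -0.75.

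The remaining 8 genes moved little with DH in adult rats. C1qa measured 1456 ± 169 normalised counts in DH and 1375 ± 127 in EH rats (SD, n = 5), with an LFC of 0.08 and an interval from -0.09 to 0.25. C1qb (LFC -0.03), C1qc (0.14), C1s (-0.06), C2 (0.10), C3ar1 (0.19), C5ar1 (-0.12) and Serping1 (0.09) had intervals that included 0. The narrowest of these, for Serping1, ran from -0.04 to 0.21, and the widest, for C5ar1, from -0.43 to 0.18. Of 7 markers of border macrophages tested in the same rats, Mrc1 (LFC 0.41) and Cd163 (LFC 1.16) rose with DH and 0 fell, with a median LFC of 0.20. Over all genes tested 7.67% rose. Of 15 microglial markers 0 passed by limma, with a median LFC of -0.16. With DH in aged rats 0 of the 7 border macrophage markers passed, with a median LFC of 0.018 and 3 LFCs below 0.

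In aged rats, DH likewise gave 0 calls among the 9 genes by limma and by edgeR, and 1 by DESeq2, where limma called 7.29% of the 15346 genes tested. At an unadjusted p under 0.05 there was 1 of the 9, against 21.4% of all genes tested. No gene of the 9 separated the groups, where 7.05% of all genes tested had no overlap. The gene that DESeq2 called was C3 (adjusted p = 0.0249), which read 1078, 1280, 1391, 1327 and 1377 normalised counts in aged DH rats and 1638, 1512, 1406, 1375 and 1906 in aged EH rats. The DH rats all lay at or below the lower part of the EH range. The means were 1291 ± 127 and 1568 ± 216 (SD, n = 5), an LFC of -0.28 (SE 0.09, 95% interval -0.46 to -0.09; limma adjusted p = 0.0745).

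C1qa averaged 1879 ± 127 normalised counts with DH and 1723 ± 229 without it (SD, n = 5; LFC 0.13, limma adjusted p = 0.337). It was called only without aged EH replicate 2, the rat at 2131 (adjusted p = 0.0263). C2 measured 155 ± 36.8 and 129 ± 20.9 (SD, n = 5; LFC 0.25, limma adjusted p = 0.394), and its highest value, 214, belonged to aged DH replicate 1. That rat also had the highest C1qc of its group, 1196. Its summed level of 8 border macrophage markers was the highest of the group, 2812 against 1270 to 1794 in the rest on the scale of all 20 libraries. It was also highest in its group for the lists of blood cells, choroid plexus, fibroblasts and meninges, microglia, and pericytes and smooth muscle, thus for 6 of 10 cell type lists. The part of these cells was not tested.

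Whether DH acted differently at the 2 ages was tested directly over all 20 rats, as the DH response of aged rats less that of adult rats. None of the 9 genes passed by limma, edgeR or DESeq2, and 0 of 9 had an unadjusted p under 0.05, where limma called 0% of the 15326 genes tested and 9.93% had an unadjusted p under 0.05. For C3 the difference was 0.20, with an interval from -0.44 to 0.85 (limma adjusted p = 0.877). For C5ar1 it was 0.29 (-0.20 to 0.78), for C3ar1 -0.37 (-0.95 to 0.20) and for Serping1 -0.13 (-0.43 to 0.17). The C1q chains gave the narrowest intervals, from -0.19 to 0.30 for C1qa and from -0.15 to 0.26 for C1qb.

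The ages were also compared within DH, on reads scaled over all 20 libraries, a comparison added after the data had been seen. It shares no rats with the comparison of EH rats. C3 was again higher in aged rats, at 1266 ± 124 against 488 ± 270 normalised counts (SD, n = 5), an LFC of 1.52 (SE 0.25, 95% interval 0.99 to 2.05; limma adjusted p = 0.00235). The groups did not overlap. Of the 9 genes, 2 were called, C3 and C1qa, where 10.8% of the 15306 genes tested were called, and 1 separated the groups, where 8.87% did so over all genes tested. At an unadjusted p under 0.05 there were 6 of the 9, against 27.1% of all genes tested. C1qa measured 1843 ± 123 against 1482 ± 174 (SD, n = 5; LFC 0.32, SE 0.07, limma adjusted p = 0.0143) and was called in all 10 fits with a rat left out, although 1 adult rat, at 1728, exceeded the lowest aged rat, at 1687. C5ar1, at 38.7 ± 7.20 against 52.98 ± 7.07 (SD, n = 5; LFC -0.45), did not pass (limma adjusted p = 0.0924). C2 (LFC 0.37, adjusted p = 0.103), C3ar1 (-0.38, adjusted p = 0.120) and C1qb (0.20, adjusted p = 0.0653) did not pass either by limma, and DESeq2 called C1qb (adjusted p = 0.0424).

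On that common scale the order of C3 was adult DH (488 ± 270 normalised counts), adult EH (624 ± 126), aged DH (1266 ± 124) and aged EH (1538 ± 214; SD, n = 5 each). The step between both adult groups was within their spread, the step from adult EH to aged DH had no overlap (442 to 755 against 1057 to 1364), and the step between both aged groups overlapped by a single pair of values, with 1364 in DH and 1349 in EH. The order of C5ar1 ran the other way, from aged EH (34.6 ± 9.15) through aged DH (38.7 ± 7.20) and adult DH (52.98 ± 7.07) to adult EH (57.8 ± 7.29; SD, n = 5 each), and all neighbours in it overlapped. C1qa rose in the order adult EH (1400 ± 128), adult DH (1482 ± 174), aged EH (1690 ± 225) and aged DH (1843 ± 123; SD, n = 5 each), with overlap between all neighbours. The group means of C1s, from 780 to 815, and of Serping1, from 1834 to 2021, differed by less than the SD of their most scattered group.

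Marker genes of the cells in the punch also differed with age. Of 15 microglial markers tested between EH rats, 7 were higher and 1 (Olfml3) lower in aged rats by limma, with a median LFC of 0.30. Over all genes tested 2.69% were called higher and 3.30% lower. The protease Ctss was at 4133 ± 312 against 2933 ± 159 and the receptor Trem2 at 260 ± 24.8 against 176 ± 35.9 normalised counts (SD, n = 5). The list summed to between 15327 and 17811 normalised counts in the aged rats, against 13063 to 14096 in the adults. Of 8 fibroblast and meningeal markers tested, 6 were lower and 0 higher, with a median LFC of -0.74. The 10 markers of this list summed to between 10976 and 18378 in the aged rats, against 27279 to 32466 in the adults. Of 6 oligodendrocyte markers 3 were lower and 0 higher, and of 8 astrocyte markers 2 were lower and 0 higher. Of 6 magnocellular markers 2 were higher and 0 lower. Of 6 choroid plexus markers 1 (Clic6) was called higher and 0 lower, but 5 of the LFCs were below 0, with a median of -0.30. Of 7 border macrophage markers 1 (Cd163) was called higher and 0 lower, with 5 LFCs below 0 and a median of -0.15. In bulk RNA, fewer cells of a type and less RNA per cell cannot be told apart, and the part of these shifts in the complement values was not tested.

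**Figure D4:**
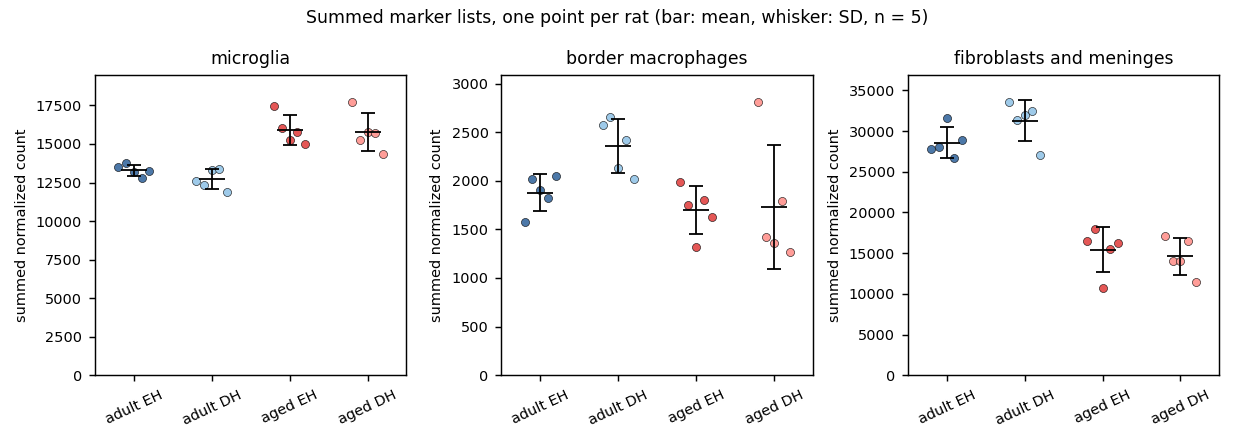
Summed normalised counts of the marker lists for microglia, border macrophages, and fibroblasts and meninges (vertical axes, from 0), with all 20 libraries scaled together. Each point is a rat, the bar the mean and the whisker the SD (n = 5). All aged rats lie above all adult rats in the microglial panel and below them in the fibroblast and meninges panel.

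Each complement gene was also expressed relative to the mean log2 level of the microglial list in the same rat. On this measure C3 was at 1.36 ± 0.24 in aged EH and 0.28 ± 0.35 in adult EH rats on the log2 scale (SD, n = 5), a difference of 1.08 with no overlap (two-sided exact permutation p = 0.00794, the smallest that 5 against 5 rats allow). C5ar1 was lower by the same measure, with a difference of -0.99 (exact permutation p = 0.0159). C1qa, with a difference of 0.03 (exact permutation p = 0.802), C1qb (-0.10, exact permutation p = 0.246) and C1qc (-0.13, exact permutation p = 0.262) overlapped between the ages. After adjustment over the 27 such tests none passed, and the adjusted p was 0.161 for both C3 and C5ar1. With 27 tests a single gene at the smallest possible p cannot pass, so this outcome does not tell whether C3 differed on this measure.

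Beside the 9 genes, 46 other complement genes were listed by role, and 31 of them had enough counts to be tested between EH rats. Of these, 4 were higher in aged rats and 0 lower, where 2.69% of all genes tested were called higher and 3.30% lower. C4b, which encodes the C4 component of the classical pathway, measured 192 ± 14.9 against 91.8 ± 28.4 normalised counts (SD, n = 5; LFC 1.11, limma adjusted p = 0.00382). The 5 aged EH rats all exceeded the 5 adult EH rats for it, and its near-identical copy C4a was assigned 4 reads over all 20 libraries, against 2867 for C4b. How reads that fit both copies were counted is not stated, so the level of C4b is uncertain. Itgam and Itgb2, which encode the chains of complement receptor 3 on microglia and other myeloid cells, had LFCs of 0.61 (limma adjusted p = 0.0365) and 0.36 (limma adjusted p = 0.0322). Cd59, which blocks the membrane attack complex, had an LFC of 0.28 (limma adjusted p = 0.00238). The median LFC over the 31 genes was 0.03.

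**Figure D5:**
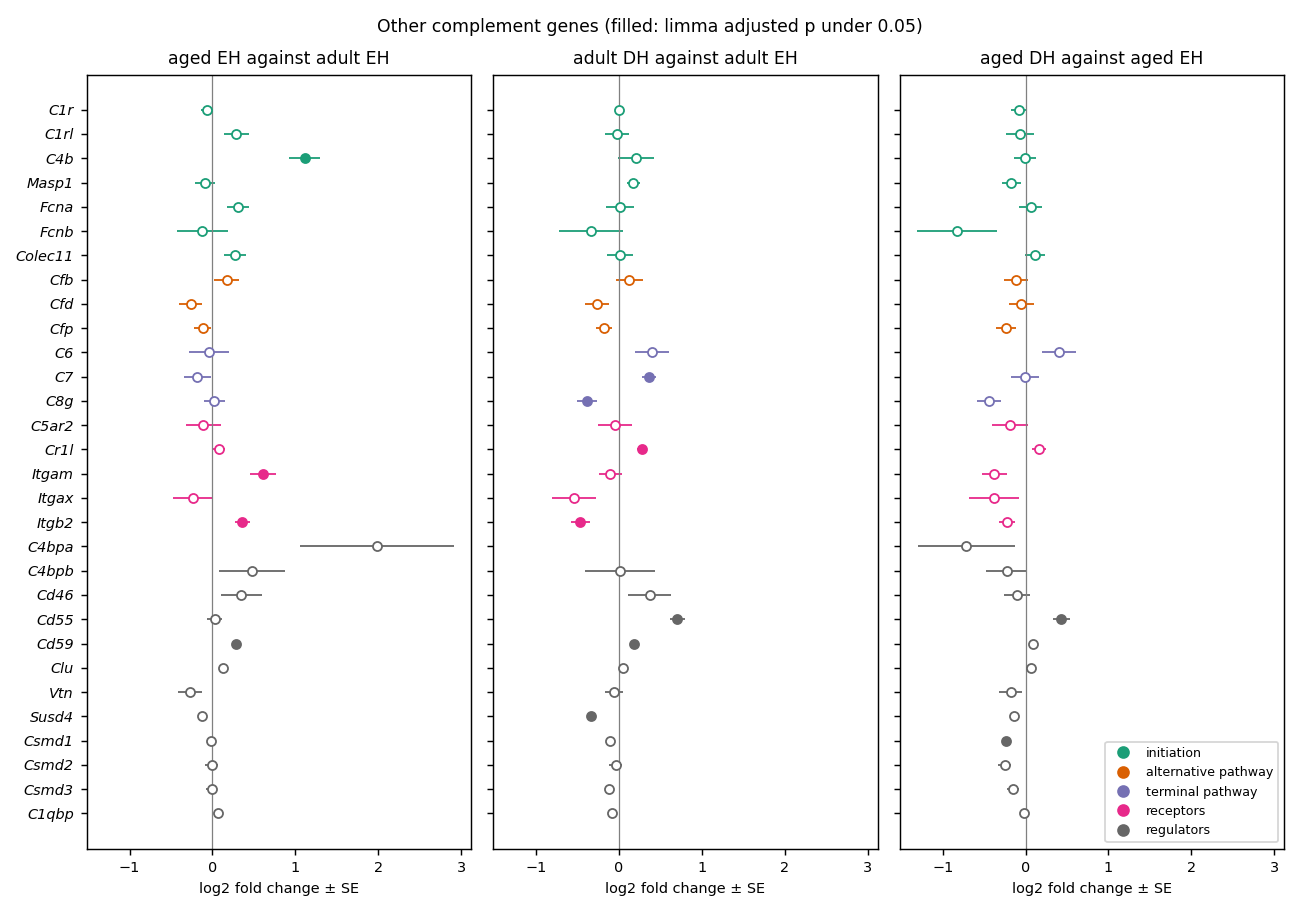
LFC with its SE (horizontal axes) of other listed complement genes that were tested (rows), coloured by role, in the comparison of ages and in both comparisons of DH with EH. Filled points passed an adjusted p under 0.05 by limma: 4 higher with age, 4 higher and 3 lower with DH in adult rats, and 1 each way with DH in aged rats.

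With DH in adult rats, 4 of 30 such genes rose and 3 fell, where 7.67% of all genes tested rose and 4.99% fell. Cd55, a regulator that speeds the decay of C3 convertases, rose from 1072 ± 74.4 to 1760 ± 257 normalised counts (SD, n = 5; LFC 0.70, limma adjusted p = 1.56e-04), with no overlap. Cd59 (LFC 0.18), the regulator Cr1l (0.28) and C7, part of the membrane attack complex (0.36), also rose. The regulator Susd4 fell from 2992 ± 187 to 2355 ± 107 (SD, n = 5; LFC -0.34, limma adjusted p = 2.82e-04), and C8g (-0.39) and Itgb2 (-0.47) fell as well. In aged DH rats 2 of 31 passed, a share close to the 7.29% of all genes tested. Cd55 rose from 1144 ± 179 to 1537 ± 205 (SD, n = 5; LFC 0.43, limma adjusted p = 0.0212), and Csmd1, a regulator expressed by neurones, fell from 1042 ± 28.6 to 885 ± 40.1 (SD, n = 5; LFC -0.24, limma adjusted p = 0.00516). None of the 31 passed in the difference between the ages. Within DH, aged rats had higher C4b (LFC 0.90), Itgb2 (0.61), Cd59 (0.19) and C1qbp (0.13) than adult rats. Lower in aged rats were Masp1 (-0.43), C7 (-0.55) and Vtn (-0.39). These were 4 higher and 3 lower out of 30 tested, where 4.95% of all genes tested were called higher and 5.81% lower.

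Likeness between genes was described as Pearson's r of the deviations of the 20 rats from their group means, among 13207 genes with a mean of at least 50. The rats were dissected in parallel, and r describes these 20 libraries only. The nearest genes were picked as those with the highest r, and no r was tested. Among the members, C1qb and C1qc were alike (r = 0.76), more than C1qa with C1qb (0.59) or C1qa with C1qc (0.49). The gene nearest to the mean of the C1q chains was Tlr7, a receptor for RNA in phagocytes (r = 0.84), followed by Ccdc80, Ivd and Trim34. C1s varied most like Vtn (0.88), Emilin1 (0.81) and its partner protease C1r (0.81), and Serping1 like Uaca (0.90), Colec12 (0.90) and Kank2 (0.89). C1s and Serping1 were also alike (0.78), as were C2 and Serping1 (0.76). The gene most like C2 was Pros1 (0.86), and that most like C3ar1 was Usb1 (0.86). For C3, r with the other members ran from -0.41 (C1qb) to 0.23 (C1s), and its nearest genes with a symbol were Gxylt1 (0.80) and Csad (0.78). By ranks (Spearman's rho) C3 was less like them, at 0.71 for Gxylt1 and 0.63 for Csad.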

How the data were processed

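Trimmed reads were mapped by the authors to Rn6 (STAR), summarised per gene (featureCounts) and scaled with DESeq2 size factors. The sources used here do not give the versions of the first 2 tools or the strand setting of counting. The signal deposited for each library is this normalised count, in 3 tables of 10 libraries, each scaled on its own. Whole reads were recovered from the 3 tables: 100% of values lay within 0.1 read of a whole number, and the 10 libraries present in 2 tables gave identical reads. The authors' columns of means, fold changes, test statistics and p-values were not used.

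Genes with a mean of at least 10 in a fit were tested with limma 3.58.1 (R 4.3.3) on log2(normalised count + 1), with moderation that follows the mean, two-sided, Benjamini-Hochberg adjusted over all genes tested at 0.05 and without an LFC filter. These fits took in the rats of both groups compared, or all 20 rats for the difference between the ages. Adult DH and aged DH rats were compared on recovered reads scaled by median ratios over 20 libraries, a comparison added later. Intervals are 95%. edgeR 4.0.16 and DESeq2 1.42.0 were run on recovered reads, and the fit was checked on simulated data. The tests of relative levels and of ratios were exact permutation tests over rats. Each library is 1 rat. The study's methods assign whole cages of aged rats to EH or DH, which the tests do not model.

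The members and lists were chosen with earlier results of these data known. Genes named are the 9 members, other listed complement genes called in any comparison, the nearest of the 5 genes most alike each member with a mean of at least 50, and markers beside the results. Alternatives were other pseudocounts, filters, scalings, moderation, count models, a replicate block and each rat left out. Replicate numbers are those of the labels, and the deviations of rats that share a number had low r, from -0.083 to 0.16. Some such pairs were still each other's best match. These were replicate 1 of aged DH and aged EH (0.16), replicate 2 of adult DH and adult EH (0.13), and replicate 1 of aged EH and adult EH (0.12). Promoters are those of RefSeq on GRCr8. Figures were drawn with matplotlib 3.10.9. 1 listed gene is counted in the lists but not reported here by name.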

Additional observations from a re-analysis of the deposited data

Results flagged for a closer look

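In 3 of the 36 sets of 5 rats examined (9 genes in 4 groups), 1 rat stood further from its group than Dixon's 95% limit allows, and chance gives about 1 in 20 such sets. For C3, adult DH replicate 4 had 934 normalised counts and the next rat 435. For C1qa, aged EH replicate 2 had 2131 and the next rat 1656. For C5ar1, aged EH replicate 6 had 51.3 and the next rat 34.8. Without the first rat, C3 was called lower with DH in adult rats, at an LFC of -0.75. Without the second, C1qa was called higher with DH in aged rats. Without the third, the LFC of C5ar1 with age was -0.89 (limma adjusted p = 0.00660). That was the lowest adjusted p of the 10 fits with 1 rat left out, of which 3 called C5ar1. These 3 rats were picked for their extreme values, so the fits without them are not further evidence of a difference.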

How the results depend on the processing

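C3 was called higher in aged EH rats under every alternative run. The count of complement genes called between EH rats was 1 without a filter on low values (C5ar1 at an adjusted p of 0.0508) and 1 with a mean of at least 50, which C5ar1 does not reach, and ran from 1 to 2 with a rat left out. With DH it ran from 0 to 1 in adult rats and from 0 to 1 in aged rats with a rat left out, and was 1 in aged rats with DESeq2. The pairing of replicate numbers has no basis in the labels. With the replicate block, 3 genes were called between EH rats (C1qa, adjusted p = 0.0267), 0 in each other comparison, and over all genes 987 rather than 1934 with DH in adult rats and 653 rather than 1119 in aged rats. An LFC minimum of 0.5 left 303, 304 and 218 genes of all tested in the 3 comparisons, against 921, 1934 and 1119, and moderation without a trend gave 516 and 671 in the ageing and aged DH comparisons. With 1 rat left out, all genes called fell as low as 594 in ageing and 678 in aged DH. On the recovered reads, edgeR called 900 genes in ageing, 1939 with DH in adult and 1131 in aged rats, and DESeq2 called 1295, 2253 and 1532. For the difference between the ages edgeR called 0 and DESeq2 55 of all genes.

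Directions that turned were all of uncalled LFCs, and all were small except that of C3 for the difference between the ages (0.20). For C3ar1 between EH rats (-0.0039) the LFC was 0.0053 with a pseudocount of 10, 0.070 with edgeR and 0.068 with DESeq2. For C1s with DH in aged rats it was -0.0076 scaled to equal totals and -0.034 with the block, and for C1qb it was -0.015 with the block. With a rat left out, LFCs with age in EH rats ran from -0.14 to 0.21 for C3ar1, from -0.083 to 0.037 for C1s and from -0.088 to 0.052 for Serping1. With DH in adult rats they ran from -0.084 to 0.011 for C1qb and from -0.096 to 0.0018 for C1s, and with DH in aged rats from -0.013 to 0.070 for C1qb, from -0.058 to 0.11 for C1s and from -0.12 to 0.038 for Serping1. For the difference between the ages they ran from -0.0037 to 0.13 for C1qa, from -0.00019 to 0.16 for C1s and from -0.0033 to 0.48 for C3, and between the DH groups from -0.012 to 0.10 for C1qc and from -0.018 to 0.14 for C1s. The cause was not tested. C5ar1 and C3ar1 had 28 to 98 reads per library, the fewest of the 9 genes.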
